A study of Homo sapiens with 108 samples.

Results

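The ZNF706 knockdown was set against a non-targeting hairpin (NT) in HEK293T cells, a transformed line derived from human embryonic kidney. The comparison holds 24 of the 108 SLAM-seq libraries of the series, 12 from cells carrying the ZNF706 hairpin and 12 from cells carrying the NT hairpin, chosen by their titles and matched by chase time (0, 2, 4 and 8 h, 3 biological replicates each). Cells of both arms were transduced with lentivirus and selected in puromycin. Both arms were then kept for 24 h in 10 µM 4-thiouridine (4SU), with the medium renewed every 8 h, and were chased in 1 mM uridine. Libraries were read from the poly(A) end, so each count belongs to the 3′ end of an mRNA. A single hairpin was used as the model for each arm.

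ZNF706 is a small protein with a C2H2 zinc finger, and its N-terminus resembles that of the SERF family, small charged proteins that bind unfolded or amyloid-forming proteins. In SLAM-seq, 4SU enters new RNA, and after alkylation reverse transcriptase reads it as C. A labelled transcript therefore carries T>C conversions, and the loss of conversions during the chase follows the decay of the RNA that was made before it.

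The ZNF706 libraries were deeper than the NT libraries, with 9347942 to 25518272 against 8206060 to 13359455 reads in 3′ UTRs. Multimapped reads made up 6.59 to 7.37% and 6.66 to 6.91% of them. The 4 h replicate 3 of the ZNF706 arm had the fewest reads and the lowest label of its arm at that time. Of 7 genes chosen as marks of HEK293T cells, VIM had 567 to 794 CPM in the knockdown and 587 to 898 in NT. CPM of these markers are read counts scaled to the library's total reads in 3′ UTRs. KRT18, NEFM, NEFL and LIN28B had reads in all 24 libraries. KRT8 had reads in 23 libraries and PAX2 in 6. Of 10 markers of other cells, LYZ, HBB, PECAM1 and AFP had no read. PTPRC, CD3E and ALB had reads in 2 libraries each, and EPCAM in 13. COL1A1 was read in all 24, at 9.25 to 25.7 CPM in the knockdown and 2.86 to 36.7 CPM in NT.

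The targeted mRNA was lower in the knockdown, and the arms overlapped. Normalised CPM (CPM from read counts with TMM scaling) of ZNF706 ran from 9.34 over a median of 23.7 to 42.7 in the knockdown and from 24.2 over 46.6 to 65.3 in NT. Of the 12 knockdown libraries, 6 lay below every NT library. The mean was 23.1 ± 9.16 (SD, n = 12) against 45.8 ± 11.4 (SD, n = 12), a log2 change of -1.03 (SE 0.219, edgeR quasi-likelihood test, adjusted p = 0.00201). By chase time the log2 change was -0.73 at 0 h, -1.53 at 2 h, -1.43 at 4 h and -0.43 at 8 h. Fitted on the 0 h libraries alone, 3 against 3, ZNF706 did not pass edgeR's test (adjusted p = 0.613). The related SERF2, which shares counted bases with another gene, had a log2 change of 0.17 (adjusted p = 0.354). SERF1A and SERF1B are near-identical copies, their reads were almost all multimapped, and neither passed the test.

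Expression changed in both directions. In these bulk libraries, fewer cells with an mRNA and less of it per cell cannot be told apart. Of 12508 genes tested, 363 rose (2.9%) and 298 fell (2.38%) at an adjusted p under 0.05 with a fold over 1.2. The direction was the same at all 4 chase times in 354 and 291 of them. In 19 genes (0.152% of those tested) all 12 knockdown libraries lay above all 12 NT libraries, and in 23 genes (0.184%) they all lay below. The counts depended on the libraries: 173 rose and 166 fell without ZNF706 replicate 1, and 204 rose and 176 fell without ZNF706 replicate 2. Called genes were more abundant, with a median of 192 normalised CPM in those that rose, 96.2 in those that fell and 25.8 in genes not called. The part of abundance in the counts of gene lists below was not tested. Genes that fell had GC-rich counted 3′ UTR bases, with a median GC content of 51.0% against 42.9% in genes that rose and 43.4% in genes not called. With each library's trend on GC content removed, 223 genes rose and 389 fell, so that genes that rose made up 36.4% of the calls in place of 54.9%.

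EIF4G2, a translation initiation factor related to eIF4G that lacks the region binding the cap protein eIF4E, fell most clearly. The gene lies at chr11:10797050-10808940 (hg38, minus strand). Its normalised CPM ran from 298 over 516 to 591 in the knockdown and from 1262 over 1520 to 1639 in NT. No knockdown library reached the lowest NT library, at any chase time. The log2 change was -1.61 (SE 0.0751, adjusted p = 1.08e-17), and it was -1.74, -1.38, -1.85 and -1.46 at 0, 2, 4 and 8 h.

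**Figure D1:**
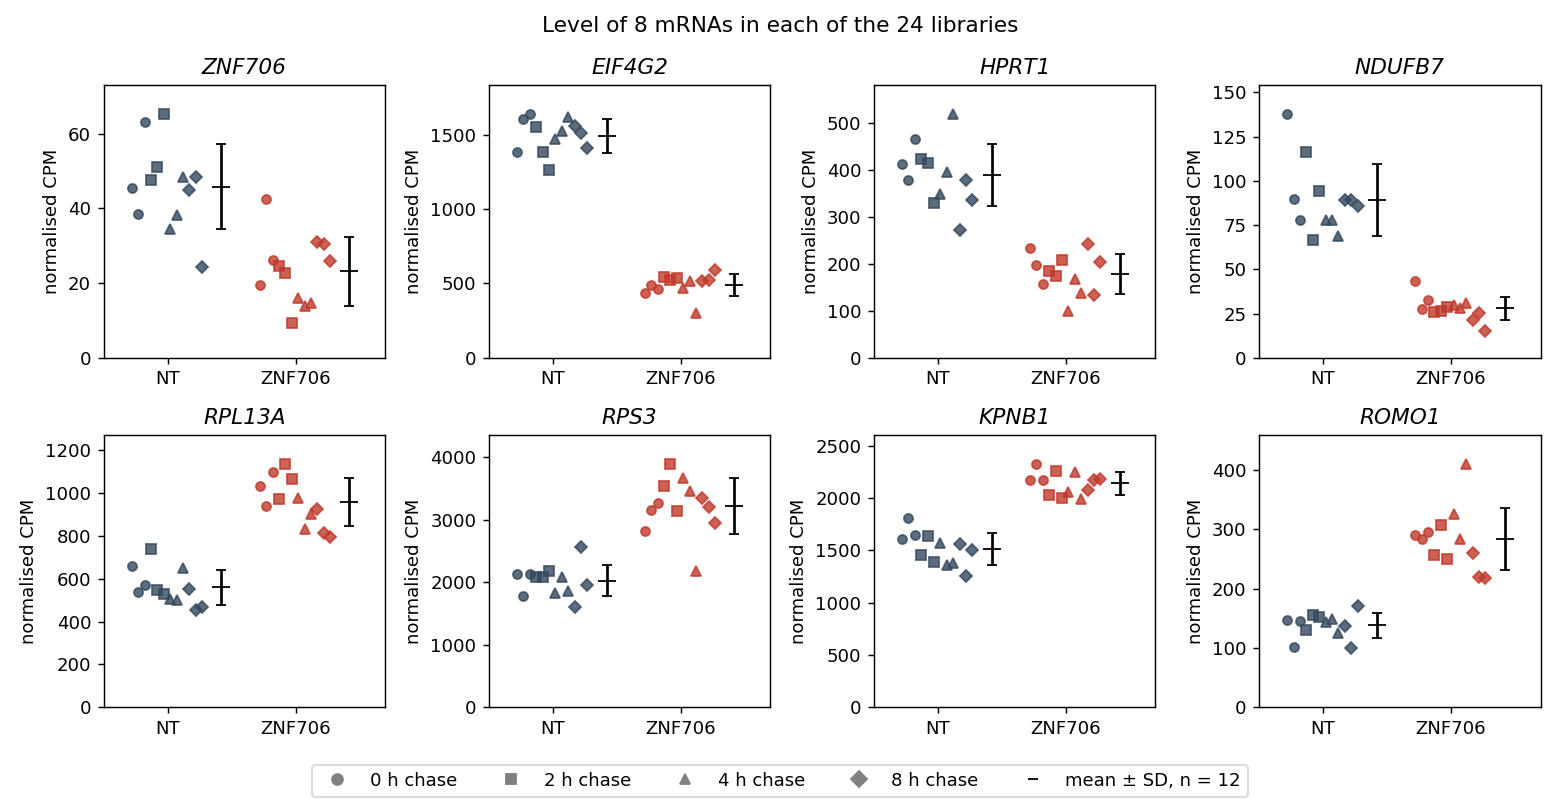
Normalised CPM (linear axis from 0) of 8 mRNAs in each of the 24 libraries, NT in dark blue and ZNF706 knockdown in red, with a marker for each chase time and the mean ± SD of 12 libraries beside each arm. EIF4G2, HPRT1 and NDUFB7 are lower in every knockdown library, RPL13A, KPNB1 and ROMO1 higher in every one, and ZNF706 and RPS3 overlap between arms.

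HPRT1, the purine salvage enzyme (chrX:134460165-134520513, plus strand), also fell without overlap. Its normalised CPM ran from 100.01 over 179 to 242 in the knockdown and from 272 over 387 to 519 in NT (log2 change -1.13, SE 0.114, adjusted p = 9.92e-09). EIF5A, the hypusine-bearing elongation factor, ran from 72.2 over 291 to 374 against 521 over 734 to 933 (log2 change -1.45, SE 0.122, adjusted p = 2.41e-10). Every knockdown library lay below every NT library for both mRNAs.

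Among the mRNAs that fell furthest were those of 2 mitochondrial proteins. NDUFB7, an accessory subunit of respiratory complex I, ran from 14.99 over 27.9 to 43.4 normalised CPM in the knockdown and from 66.5 over 87.3 to 138 in NT (log2 change -1.69, SE 0.156, adjusted p = 1.15e-09). MRPL28, a mitochondrial ribosomal protein, ran from 10.8 over 20.0 to 33.9 against 38.8 over 59.9 to 90.9 (log2 change -1.64, SE 0.204, adjusted p = 5.55e-07). Neither mRNA overlapped between the arms. PTMS (parathymosin, log2 change -1.31), BSG (basigin, a chaperone of monocarboxylate transporters, -0.89), ZNF428 (-0.88) and MAZ (a zinc finger transcription factor, -0.97) fell as well, at adjusted p of 1.27e-08, 2.26e-08, 8.16e-08 and 2.77e-12. All 12 knockdown libraries lay below NT for PTMS and MAZ, 11 for BSG and 10 for ZNF428.

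The remaining genes named by the size of their fall were expressed at a low level. CCDC34 fell by 1.53 on the log2 scale (20.3 ± 9.55 against 58.4 ± 16.6 normalised CPM, SD, n = 12), with 11 of 12 knockdown libraries below every NT library. DPM2, a subunit of the dolichol-phosphate mannose synthase, fell by 1.73 (12.4 ± 5.90 against 40.5 ± 14.7), with 10 of 12 below. CILP2, FNDC10, ZNF778, FUOM (fucose mutarotase) and LTB4R (a leukotriene receptor) fell by 1.49 to 1.69 on the log2 scale. Of these, LTB4R had no knockdown library below every NT library, and FUOM had 2. FUOM did not pass with the replicate number as a block (adjusted p = 0.0652).

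Many mRNAs of cytosolic ribosomal proteins rose, beside 2.9% of all genes tested that rose and 2.38% that fell. Of 47 tested mRNAs of the large subunit, 24 rose, 0 fell and 23 were not called, with a median log2 change of 0.30 against 0.045 over all genes tested. Of 32 of the small subunit, 10 rose, 1 fell and 21 were not called, with a median of 0.28. RPL13A rose most clearly, from 454 over 542 to 737 normalised CPM in NT to 794 over 956 to 1136 in the knockdown, with no overlap (log2 change 0.78, SE 0.0666, adjusted p = 3.13e-10). RPS3 rose by 0.67 and RPL27A by 0.54 (adjusted p = 1.57e-08 and 2.99e-08), each with 11 of 12 knockdown libraries above every NT library. RPS19 rose by 0.75 and RPL36, which shares counted bases with another gene, by 0.61. The member that fell, RPS9 (-0.79), had almost only multimapped reads, and many ribosomal protein mRNAs have near-identical pseudogene copies. Without multimapped reads, 22 of the large and 10 of the small subunit rose and 0 fell. With the GC trend removed, 16 and 8 rose and 1 of each fell.

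Other mRNAs of the translation machinery moved in both directions, beside 2.9% of all genes tested that rose and 2.38% that fell. RACK1, a scaffold on the small ribosomal subunit, rose by 0.44 on the log2 scale (adjusted p = 4.93e-08, 11 of 12 libraries above NT). Of 21 other mRNAs known to start with a terminal oligopyrimidine (TOP) tract, 5 rose and 0 fell, with a median of 0.15. With the GC trend removed, 5 of the 21 rose and 1 fell, with a median of 0.03. The elongation factor mRNA EEF1A1, whose reads were mostly multimapped, rose by 0.46, NACA by 0.43 and EEF1G, which shares counted bases with another gene, by 0.42. NACA2 rose by 0.64 (adjusted p = 3.69e-08), but it is a near copy of NACA and the files may split their reads. Of 53 initiation factor mRNAs, 6 rose and 5 fell, with a median of 0.058, and 3 rose and 6 fell with the GC trend removed. Beside EIF4G2 and EIF5A, the mRNAs of the eIF4F complex EIF4G1 (-0.78), EIF4A1 (-0.56) and EIF4E (-0.40) fell, at adjusted p of 9.88e-06, 9.71e-10 and 0.00616. EIF4E, also named after its value was seen, had 53.1% multimapped reads, and EIF4A1 shares counted bases with another gene. EIF1 (0.47), EIF5 (0.46) and EIF2S2 (0.42), start-site factors named after their values were seen, rose.

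**Figure D2:**
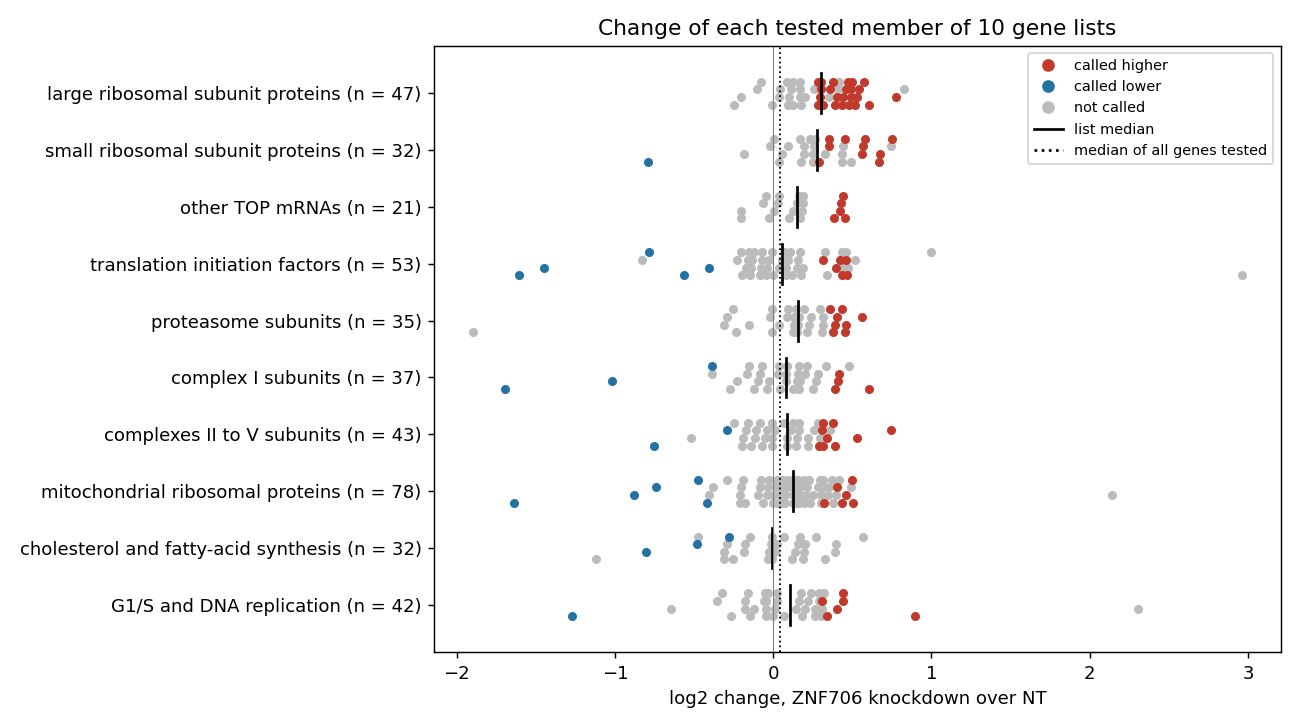
Log2 change of each tested member of 10 gene lists (ZNF706 knockdown over NT), with red points for genes called higher, blue points for genes called lower and grey points for the rest. Black bars give each list's median and the dotted line the median of all genes tested (0.045); the medians of the ribosomal lists (0.30 and 0.28) lie furthest to the right.

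Subunits of the proteasome, the protease of the ubiquitin pathway, gave 8 that rose and 0 that fell of 35 tested (median 0.16). Among all genes tested, 2.9% rose and 2.38% fell, which is also the measure for the respiratory and mitochondrial lists below. The catalytic subunits PSMB7, PSMB6 and PSMB5 rose by 0.56, 0.45 and 0.43, and PSMA5 of the outer ring by 0.46. With the GC trend removed, 6 of the 35 rose and 2 fell, with a median of 0.04. Respiratory chain mRNAs moved in both directions. Of 37 complex I subunits, 4 rose and 3 fell, with NDUFA13 at 0.60, NDUFB7 at -1.69 and NDUFS7 at -1.02. Of 43 subunits of complexes II to V, 9 rose and 2 fell, with COX7C at 0.75 (361 over 421 to 543 against 177 over 252 to 365 normalised CPM) and ATP5F1D at -0.75. With the GC trend removed, 2 of those 43 rose and 4 fell. Of 78 mitochondrial ribosomal proteins, 6 rose and 5 fell (median 0.13), and 2 rose and 6 fell with that trend removed (median 0.04). ROMO1, a small protein of the inner mitochondrial membrane, rose by 1.03 (adjusted p = 3.56e-09), with all 12 knockdown libraries above NT.

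KPNB1, the importin that carries most nuclear cargo, ran from 1990 over 2173 to 2329 normalised CPM in the knockdown and from 1258 over 1532 to 1809 in NT (log2 change 0.50, adjusted p = 7.63e-09). HINT1, a histidine triad hydrolase, rose by 0.52, again with no overlap. Of 42 G1/S and DNA replication genes, 6 rose and 1 fell (median 0.10), beside 2.9% of all genes that rose and 2.38% that fell. With the GC trend removed, 3 of the 42 rose and 1 fell (median 0.004). POLA1, the catalytic subunit of DNA polymerase alpha, rose by 0.90, FEN1, the flap endonuclease, by 0.44 and RFC2, a clamp loader subunit, by 0.44, and CCND2, a D-type cyclin, fell by 1.27 (28.8 ± 10.7 against 69.6 ± 14.6 normalised CPM, SD, n = 12, adjusted p = 2.17e-05). Of 40 G2/M genes, 1 rose and 1 fell.

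The genes named by the size of their rise were expressed at a low level, and most overlapped between arms. PPCDC, an enzyme of coenzyme A synthesis, rose by 1.31 on the log2 scale (36.6 ± 8.24 against 15.9 ± 10.5 normalised CPM, SD, n = 12) and KLF11, a zinc finger repressor, by 1.07, each with 8 of 12 knockdown libraries above every NT library. TMEM184C, SPRED2 (an inhibitor of ERK signalling), GPR89A (which has a near-identical copy), KHDRBS3 (an RNA-binding protein), GATB and B4GALT4 rose by 0.95 to 1.26, with 2 to 6 libraries above. Each of these 8 calls was lost without at least 1 replicate number of an arm, as were those of FUOM, LTB4R, ZNF778 and FNDC10 among the genes that fell. GATB did not pass in a fit of all genes with reads (adjusted p = 0.0716), SPRED2, GATB and B4GALT4 did not pass with the GC trend removed, and TMEM184C, SPRED2 and GATB did not pass without the ZNF706 4 h replicate 3.

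Members of stress and metabolic pathways were called in both directions, beside 2.9% of all genes that rose and 2.38% that fell. Of 41 genes of the ATF4 and amino-acid response, 4 rose and 0 fell (median 0.12), with ATF4 itself at 0.37 (SE 0.0851, adjusted p = 0.00437) and PYCR1, an enzyme of proline synthesis, at 0.43. With the GC trend removed, 3 of these 41 rose and 2 fell. Of 26 ER chaperones and unfolded-protein genes, 0 were called. Of 23 heat shock proteins, 1 rose and 2 fell, with the co-chaperone FKBP4 at -0.52 and HSPA1B, whose reads were almost all multimapped, at -0.56. Of 19 NRF2 targets, 4 rose and 2 fell, with TXN (thioredoxin) at 0.53 and HMOX1 (heme oxygenase) at -1.15 (85.4 ± 40.1 against 191 ± 62.9 normalised CPM, SD, n = 12). Of 18 metallothionein and zinc transport genes, 2 rose, MT2A (0.69) and SLC39A1 (0.40), and SLC39A7 fell with almost only multimapped reads. Of 32 genes of cholesterol and fatty-acid synthesis, 0 rose and 3 fell, SQLE (-0.80), FASN (-0.48) and ACLY (-0.28). Against the mean of 4 other knockdowns of the series, described below, 2 of these 32 were higher and 0 lower (median -0.01). In that comparison, 6.76% of all genes tested were higher and 6.36% lower. Of 41 immediate-early and short-lived regulators, 1 rose and 4 fell, with the transcription factor SOX4 at -0.76 and ID3, an inhibitor of helix-loop-helix factors, at -0.51. Of 26 interferon and antigen genes, 4 rose, but USP18 and HLA-E had almost only multimapped reads, and ISG20 and IFI35 averaged 1.46 and 1.42 normalised CPM in the knockdown.

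Since all of these differences rest on the same 12 NT libraries, the ZNF706 libraries were set against the mean of the MAZ, PHF7, ZMAT3 and ZMAT5 knockdowns of the same series, 12 libraries each except PHF7 with 11, since its 8 h replicate 3 was too shallow and was left out. This comparison shares the ZNF706 libraries with the first, and they are not independent. Of 13706 genes tested, 927 were higher (6.76%) and 872 lower (6.36%). EIF4G2 was lower by 1.31 on the log2 scale (SE 0.0486, edgeR adjusted p = 1.64e-34), HPRT1 by 1.13 (adjusted p = 2.53e-23), CCDC34 by 1.30, ZNF778 by 1.34 and ZNF706 by 0.82. The mean of EIF4G2 was 501 ± 75.6 normalised CPM in the ZNF706 arm and 903 ± 63.7 (n = 11) in the PHF7 arm, the lowest of the 4.

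Several other mRNAs that were low against NT did not pass the test against these arms. EIF5A had a log2 difference of -0.04 (adjusted p = 0.825) and EIF4G1 of -0.005 (adjusted p = 0.979). PTMS had one of 0.25, BSG of -0.11, ZNF428 of 0.11 and HMOX1 of 0.12 (adjusted p = 0.626 for HMOX1). None of these mRNAs passed. NDUFB7 was 28.3 ± 6.87 normalised CPM in the ZNF706 arm, 28.4 to 40.0 in the other 4 and 90.6 ± 20.4 in NT, and it was also lower than the 4 arms (log2 difference -0.33, adjusted p = 0.0167). MAZ was higher than the mean of the 4 arms by 0.59, a mean that includes the MAZ knockdown. Without that arm the difference was 0.10 (adjusted p = 0.269). Of the mRNAs that rose, RPL13A (0.68), RPS3 (0.51), RPL27A (0.49), HINT1 (0.39) and KPNB1 (0.43) were also higher against the 4 arms, whereas RACK1 (0.05, adjusted p = 0.333) and ROMO1 (0.25, under the fold threshold) were not called. The 4 arms differed among themselves, so a difference from their mean need not hold against each arm. RPS3 averaged 3270 ± 452 normalised CPM in the ZNF706 arm, 3309 ± 421 in ZMAT5, 2588 ± 310 in MAZ, 1814 ± 100.4 in ZMAT3, 1777 ± 98.9 in PHF7 and 2056 ± 247 in NT. ROMO1 was higher in MAZ (336 ± 71.0) and ZMAT5 (325 ± 43.9) than in the ZNF706 arm (288 ± 52.2). RPL13A and KPNB1 had their highest mean in the ZNF706 arm (974 ± 114 and 2178 ± 115), followed by ZMAT5 (730 ± 102 and 1939 ± 116). Of 48 ribosomal protein mRNAs of the large subunit tested there, 21 were higher and 1 lower. Of 32 of the small subunit, 9 were higher and 0 lower. The medians were 0.24 and 0.18 against -0.01 over all genes tested, of which 6.76% were higher and 6.36% lower.

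**Figure D3:**
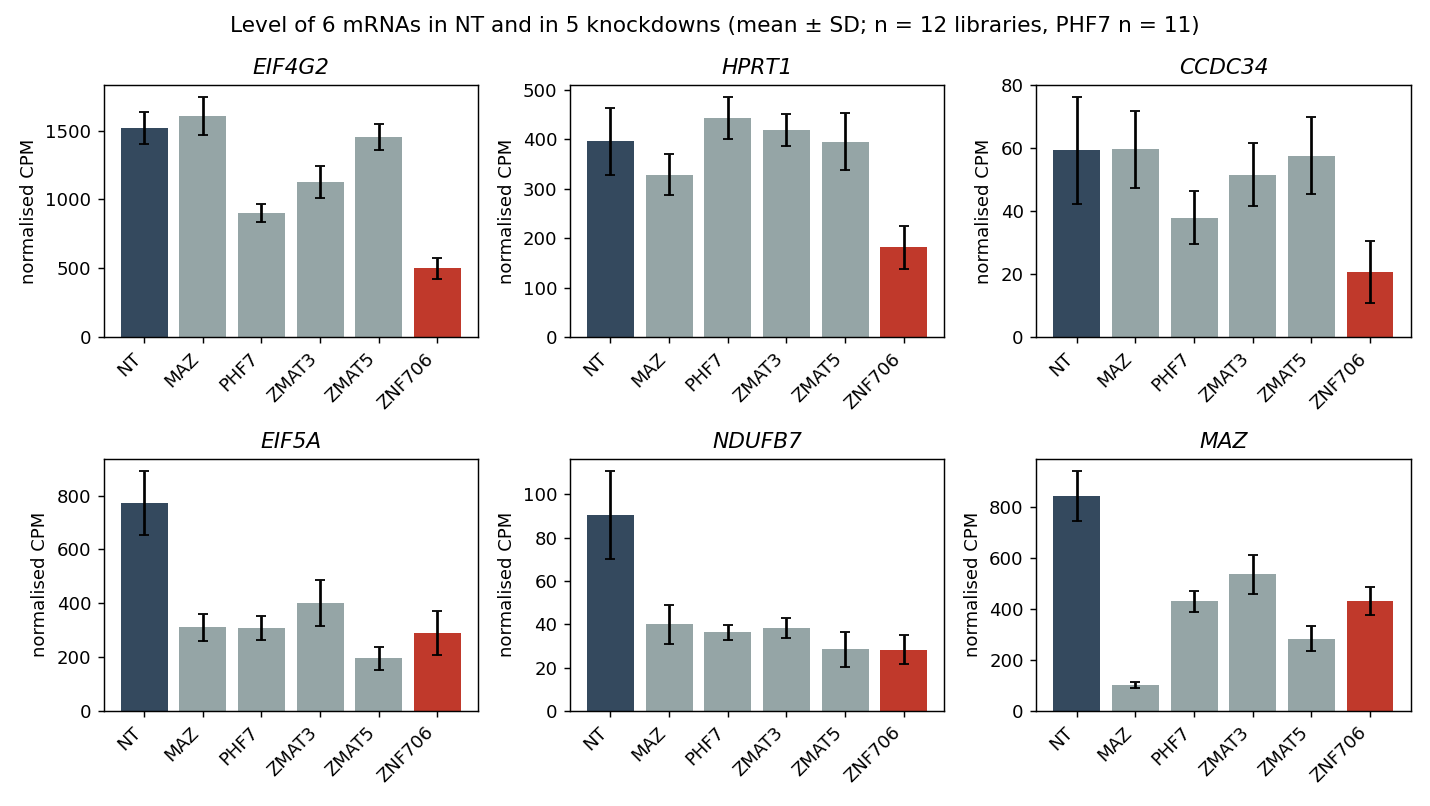
Mean normalised CPM (bars from 0) ± SD of 6 mRNAs in NT, in 4 other knockdowns and in the ZNF706 knockdown, 12 libraries each and 11 for PHF7. EIF4G2, HPRT1 and CCDC34 are lowest in the ZNF706 arm, whereas EIF5A, NDUFB7 and MAZ are lower in all 5 knockdowns than in NT.

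The hairpin sequence was set against the transcripts. Its 21-base sense arm matched 1 gene in full, ZNF706, and the longest run in any other gene was 15 bases. The run was 10 bases in EIF4G2 and 8 in HPRT1. The letters TTGTTTA pair with bases 2 to 8 of the antisense arm, and were looked for on the sense strand of the counted 3′ UTR bases. They were found in 28.7% of all tested genes, in 25.1% of genes higher and 22.5% of genes lower than NT. Against the 4 other arms, among genes also tested against NT, they were found in 37.0% of genes lower, 28.9% of genes higher and 28.1% of the rest. The genes lower there had a median GC content of 40.9% against 43.5% in the rest and a median of 2105 against 1971 counted bases, and the part of both in this difference was not tested. EIF4G2 had no such match. CCDC34 has 2 matches, of which 1 is given. Windows around the match (hg38, 5′ to 3′, with the 7 matching letters in capitals) are shown for 3 genes low against both NT and the other arms, to let the flanking letters be compared.
HPRT1 (chrX:134500290-134500318, plus strand): tgggcggattgTTGTTTAacttgtaaatg
CCDC34 (chr11:27349825-27349853, minus strand): ctttcaacttgTTGTTTActtcttatact
CCND2 (chr12:4304287-4304315, plus strand): aggattcctctTTGTTTAtctctgagaca
All 3 windows lie in annotated 3′ UTRs, and a match of 7 letters describes the sequence only. C1D, TMEM263 and TRUB1, named after their values were seen, fell by 1.22, 1.03 and 1.00 on the log2 scale against NT and were lower by 1.45, 1.21 and 0.89 against the 4 arms. C1D holds no match, and TMEM263 and TRUB1 hold 2 each.

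Label at the end of the 4SU period was higher in the knockdown. It was pooled over 5828 genes above 5 CPM, on the authors' deposited scale, in every library. At 0 h, 2.31 ± 0.215% of covered T positions were converted in the knockdown and 1.79 ± 0.0786% in NT (SD, n = 3). The 3 knockdown values, 2.56, 2.18 and 2.19%, all lay above the NT values of 1.88, 1.72 and 1.77%. The exact permutation test gave p = 0.1, the smallest that 3 against 3 allows (adjusted p = 0.133 over the 4 chase times). The arms did not overlap at 2 h (2.15 ± 0.231% against 1.40 ± 0.0549%) or 8 h (0.862 ± 0.0339% against 0.644 ± 0.0342%), both at the same exact p. At 4 h the knockdown values were 1.88, 1.22 and 0.951%, and NT lay between 1.04 and 1.08% (exact p = 0.4). The 0.951% belongs to the replicate 3 with few reads.

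**Figure D4:**
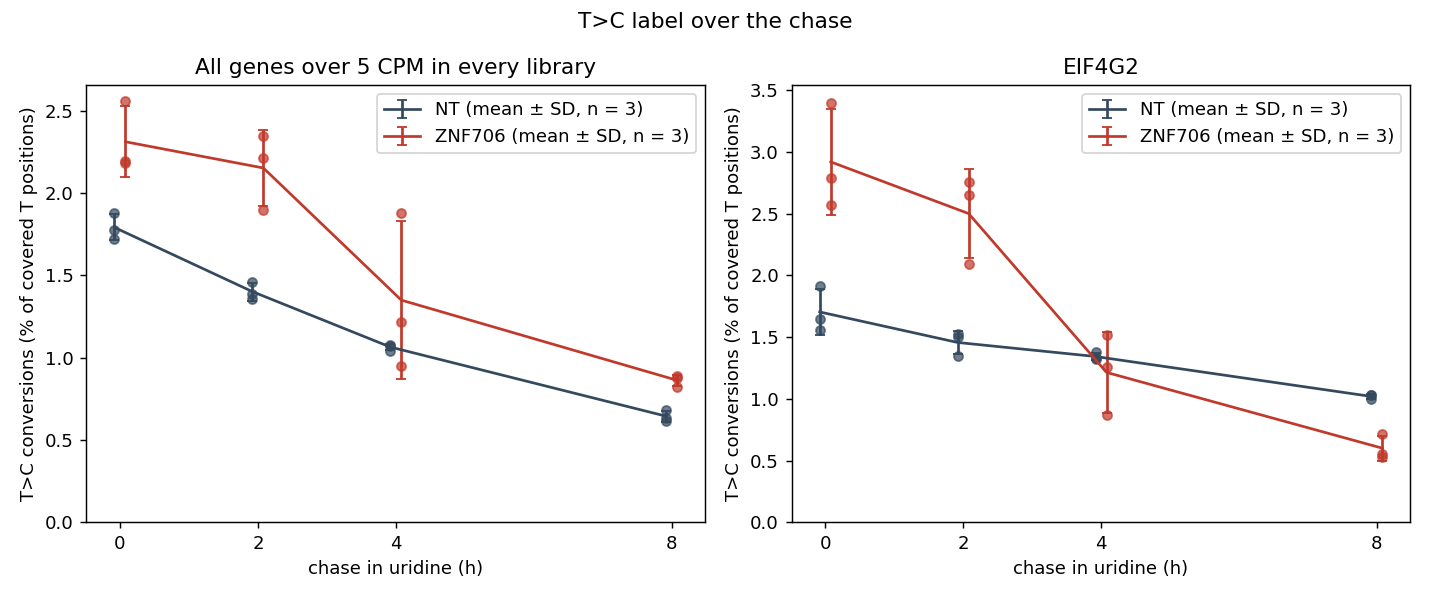
T>C conversions as a percentage of covered T positions over the chase, pooled over genes (left) and for EIF4G2 (right), with a point for each library and lines through the mean ± SD of 3 libraries; both axes start at 0. The pooled label is higher in the knockdown at 0, 2 and 8 h, and the EIF4G2 label starts higher and ends lower than in NT.

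Label left after 2 h of chase differed most. The knockdown kept 93.1% of its pooled 0 h label at 2 h and NT 78.2%, but at 4 h the shares were 58.4 and 59.4% and at 8 h 37.3 and 36.0%. The median over 7260 genes gave 90.5 against 73.9% at 2 h, 50.4 against 50.8% at 4 h and 24.9 against 21.3% at 8 h. Over the whole chase the pooled label was lost at 0.132 per h on the natural log scale in the knockdown and 0.128 per h in NT (permutation p = 0.891, two-sided).

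Fitted half-lives, from a first-order curve on the mean label of each chase time set to 1 at its start, were longer in the knockdown. Among 4765 genes fitted in each arm, the median was 3.99 h in the knockdown and 3.25 h in NT, a median log2 shift of 0.27, with longer values in 3276 genes (68.8%). The medians of single replicates were 3.79, 3.51 and 2.98 h in the knockdown and 2.63, 2.68 and 2.54 h in NT (exact permutation p = 0.1, the smallest possible). After all libraries were thinned to the same number of covered T positions, the medians were 4.00 and 3.24 h. The thinning kept the CPM filter and did not equalise the spread between replicates. Over all genes with a fitted half-life in an arm, shared or not, values under 1 h were found in 51 of 6625 in the knockdown and 273 of 5544 in NT. The shift differed with the half-life in NT. With genes ordered by it, the median shift was 0.81 in the 1191 genes of shortest and -0.05 in the 1192 of longest NT half-life, where 558 had longer values in the knockdown, though groups set by the NT value do not measure the shift independently. On simulated counts with noise, half-lives fitted in this way came out shorter than those set. Median shifts of the gene lists ran on both sides of that of all genes. Ribosomal proteins of the large subunit had a median of 16.0 h against 10.98 h in 26 genes (median shift 0.36), proteasome subunits one of 10.5 against 8.34 h in 18 genes (0.14), and ER chaperones one of 6.48 against 6.05 h in 21 genes (-0.03).

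Loss of label was then tested gene by gene. Of 7260 genes, 1 lost label faster (0.0138%) and 0 slower in the knockdown at an adjusted p under 0.05 (edgeR, conversions with T coverage as offset), and 542 passed an unadjusted p of 0.05. That gene was EIF4G2. Its label was 3.40, 2.57 and 2.79% at 0 h in the knockdown against 1.91, 1.56 and 1.64% in NT, and 0.529, 0.714 and 0.556% at 8 h against 0.998, 1.03 and 1.03%. The knockdown thus lay above NT at 0 h and below it at 8 h, with no overlap at either time. EIF4G2 kept 85.7% of its label at 2 h in the knockdown and 85.5% in NT. At 4 h it kept 41.6 and 78.8%, and at 8 h 20.6 and 59.8%. The rate of loss was 0.210 against 0.0628 per h (difference 0.148, SE 0.0224, adjusted p = 0.00157), and the fitted half-life 3.90 against 10.8 h. The call was lost without NT replicate 2 (adjusted p = 0.0698), without the 8 h libraries (adjusted p = 1.00) and by limma on the log2 rate (adjusted p = 0.215), with a difference of 0.136 to 0.160 per h in these 3 fits.

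No other gene passed. On simulated data this test called few of the genes given a changed rate, as did the test of label at 0 h, so genes that were not called may still differ. Among those with the smallest p, AFF4 (a scaffold of the super elongation complex), CNOT6 (a deadenylase) and ARGLU1 lost label faster, at differences of 0.236, 0.208 and 0.182 per h and adjusted p of 0.231, 0.260 and 0.272. KANSL2, SLC35A2, MBIP and CCDC93 lost it more slowly, at differences of -0.39, -0.47, -0.52 and -0.65 per h (adjusted p = 0.127 for each). At 8 h of chase, CCDC93 had no conversion in any NT library, and KANSL2, SLC35A2 and MBIP had 0.0224, 0.00661 and 0.00285% on average. HPRT1 had 0.123 against 0.0529 per h (adjusted p = 0.726).

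Loss of label was also set beside the change in level, with no test of the difference between gene groups. The rate was lower in the knockdown in 184 of 338 genes that rose, in 129 of 281 that fell and in 3960 of all 7260 tested (54.5%). Medians of the rate were 0.107 against 0.115 per h in genes that rose, 0.151 against 0.143 per h in genes that fell, and 0.187 against 0.195 per h over all genes tested. The median half-life shift was 0.26 in 235 genes that rose, with longer values in 161, and 0.05 in 185 genes that fell, with longer values in 99.

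Label at 0 h relative to the pooled rate of the library was tested in 8126 genes, and 0 were called (0%) by edgeR or by limma, with 454 at an unadjusted p under 0.05 in edgeR. The smallest p was that of PALS2, a scaffold protein, with 2.63, 3.53 and 1.79% against 0.0400, 0.0111 and 0.0332% (adjusted p = 0.124). SEC22C, a trafficking protein, had 3.28, 3.55 and 3.67% against 0.6001, 0.694 and 0.894% (adjusted p = 0.343). In the other direction, GLRX5, a mitochondrial glutaredoxin, had 2.31, 1.92 and 1.98% against 2.35, 2.46 and 2.37% (log2 difference -0.58 relative to the pooled rate, adjusted p = 0.476). None of these passed.

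Use of 3′ UTR intervals within a gene was compared in 3453 genes with several counted intervals. By edgeR's interval test, 0 genes passed both an adjusted p of 0.05 and a shift of at least 10 points (0%), and 315 had an unadjusted p under 0.05. SRSF7, an SR splicing factor, passed the adjusted p (0.00557) with a shift just under that limit. Its interval at chr2:38743600-38745187 (minus strand) held 75.0 ± 4.54% of its reads in the knockdown and 84.8 ± 4.67% in NT (SD, n = 12), and that at chr2:38748048-38748157 held 12.8 ± 3.09% and 6.25 ± 3.06%. The interval test missed most genes given a changed interval in simulated data, so genes not called may still differ.

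The change in expression did not differ detectably between chase times. The interaction of arm and chase time called 0 of 12508 genes (0%) in edgeR, with 619 at an unadjusted p under 0.05, and 20 in DESeq2's likelihood-ratio test. On simulated data the edgeR test missed most genes given a change at 8 h alone, so genes not called may still differ. The smallest p belonged to TOP1, a DNA topoisomerase, with log2 changes of 0.21, 0.10, -0.52 and 0.87 at 0, 2, 4 and 8 h (edgeR adjusted p = 0.439). CHUK, a kinase of the NF-κB pathway, followed with -0.38, -0.20, 0.13 and 1.55 (adjusted p = 0.898). Tested at each chase time alone, 14 genes rose and 21 fell at 0 h (0.112 and 0.168%), 43 and 26 at 2 h (0.344 and 0.208%), 43 and 23 at 4 h (0.344 and 0.184%), and 37 and 40 at 8 h (0.296 and 0.32%).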

How the data were processed

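The authors aligned QuantSeq reads to hg38 with SlamDunk and kept multimapped reads. The deposited tables give, per 3′ UTR interval, read counts, counts of T>C reads, multimapped reads, covered T positions and conversions, a CPM column scaled by the authors, and the conversion rate as a fraction. A strand setting was not given in the sources used here. Counts of 69079 intervals were summed over 19761 genes, of which GENCODE release 44 names 19501. Reads carry no molecular identifiers, so copies of a molecule cannot be told from separate molecules and precision may be worse than counting error. Read totals are given above as ranges per arm.

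Expression was tested with edgeR 4.0.16 (R 4.3.3; quasi-likelihood, TMM, filterByExpr, chase time as a factor), with Benjamini-Hochberg adjustment. Label loss was tested on conversions offset by log T coverage, where at least 2 replicates of every arm and time passed 5 CPM in the authors' column. Half-lives needed an R2 over 0.6. The slope test used 100000 permutations of arms within chase time, the others full enumeration. Called genes with the same sign at all 4 times, at least 10 normalised CPM in the higher arm, no counted base shared with another gene and under 20% multimapped reads were named per direction: the 8 of smallest p, then the 8 of largest change. ZNF706, MAZ and up to 4 called members per list were named as well, with the genes of smallest p in the label, interval and chase-time tests. Members and gene lists were chosen with earlier results of these data known, and the TOP and initiation factor lists after these tests had been seen. DESeq2 1.42.0 and limma 3.58.1 served as alternatives, with others given in the closing section. The edgeR tests and the half-life fit were also run on simulated data, but the permutation tests, DESeq2 and limma were not. No pair of replicates agreed within sampling noise. Some results are not reported here. Columns of 3 other knockdowns of the series were not used here.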

Additional observations from a re-analysis of the deposited data

How the results depend on the processing

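The counts of genes that rose and fell (363 and 298) were 480 and 499 by DESeq2, 27 and 27 with the 0 h libraries alone, 223 and 389 with the GC trend removed, and 173 to 333 and 166 to 273 when 1 replicate number of an arm was left out. Without the ZNF706 4 h replicate 3 alone they were 429 and 380. Replicate numbers shared by the arms did not pair the libraries (correlations of same-numbered deviations -0.0645 to 0.0347), and the replicate block gave 377 and 293, with 352 and 284 genes shared. Of 576 recomputed changes of named genes, 494 kept their direction and call, 82 lost the call, and 0 turned. Among the settings was the same fit without the fold threshold, where no call could be lost. The interaction called 20 genes by DESeq2 and 0 to 1 with a replicate left out. For label loss, 0 genes were faster by limma and without the 8 h libraries, 1 was slower relative to the pooled rate, and leaving out a replicate gave 0 to 14 slower and 0 to 2 faster. The highest of these, 14 and 2, came without NT replicate 3. The share of genes with slower loss was 49.0% by limma and 52.7 to 59.7% with a replicate left out. The slope difference of the pooled label ran from -0.00159 to 0.00631 per h, and the cause of these changes was not tested. Interval use called 0 to 3 genes with a replicate left out and 1 without the ZNF706 4 h replicate 3, an alternative chosen after seeing the data, as were the GC trend, thinning of T positions and leaving out NT 8 h replicate 2. Label per gene rests on few conversions in low genes, which limits the label tests.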

Other observations

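Members of further gene groups were called in the knockdown (edgeR, against NT), beside 2.9% of all genes tested that rose and 2.38% that fell. Of 65 genes of the mRNA decay machinery, 2 rose and 3 fell, with LSM7, a subunit of the ring that binds deadenylated mRNA ends, at a log2 change of -0.83. Of 53 genes of ribosome biogenesis and the nucleolus, 0 rose and 2 fell, RRP1 (-0.99) and NCL (nucleolin, -0.33), with a median of -0.02. Of 21 hnRNPs, 2 rose and 2 fell, with HNRNPH3 at 0.55 and HNRNPUL2 at -0.62, and with the GC trend removed 2 rose and 6 fell. Of 13 SR splicing factors, 1 rose, SRSF1 (0.29), and with the GC trend removed 0 rose and 1 fell. Of 14 tubulins, 2 rose and 1 fell, with TUBA1B at 0.34 and TUBB2B at -0.37, and with the GC trend removed 0 rose and 2 fell.

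Of 404 genes with a ZNF name, 5 rose and 6 fell, with a median log2 change of 0.086 against 0.045 over all genes tested. Among all genes tested, 2.9% rose and 2.38% fell, which is also the measure for the lists that follow. ZNF768 fell by 1.16 on the log2 scale, and ZNF214, close to absent in NT, averaged 3.03 normalised CPM in the knockdown. Of 24 genes of the pluripotency and KLF family list, 1 rose, KLF11, and 1 fell, KLF16 (-0.83). Of 24 p53 targets, 1 rose, CCNG1 (0.43), and 0 fell. Of 34 genes of glycolysis and the hypoxia response, 0 rose and 1 fell, PKM (pyruvate kinase, -0.34). Of 24 genes of the YAP pathway, 0 rose and 1 fell, AMOT (-0.55).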
